A study of Mus musculus with 6 samples.

Results

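Glutamate acts in the cortex through ion channels and through metabotropic receptors, which are G protein-coupled receptors that change the state of a neuron over seconds to hours. The genes examined here were 6 metabotropic glutamate receptor genes (Grm2, Grm3, Grm4, Grm5, Grm7 and Grm8) and the 3 Homer scaffold genes (Homer1, Homer2 and Homer3). They were chosen by name, as 9 of the 55367 gene rows of the count table, and all 9 had enough reads to be tested. Poly(A) RNA had been sequenced from cultures of cerebral cortical neurons prepared from newborn C57BL/6J mice (postnatal day 1) and grown for 2 days. There were 3 libraries from wild type (WT) mice and 3 from Fmr1-KO mice, which lack FMRP, the RNA-binding protein whose loss causes fragile X syndrome. The labels give no allele for Fmr1-KO, and no litter, pup or culture for a library. Genotype is the only difference between the groups that the labels state, and no treatment is given for either.

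Metabotropic receptors fall into 3 groups by sequence and coupling. Group I (here Grm5) couples through Gq to phospholipase C, which releases calcium from internal stores, and sits mainly on the postsynaptic side. Group II (Grm2 and Grm3) and group III (Grm4, Grm7 and Grm8) couple through Gi/o, lower cyclic AMP, and act largely as presynaptic brakes on transmitter release. Grm3 and, in the young brain, Grm5 are also made by astrocytes. Homer proteins bind the intracellular tail of group I receptors and link it to Shank scaffolds and to calcium channels of the endoplasmic reticulum, and a short, activity-induced Homer1 form breaks those links. Signalling through mGluR5, the product of Grm5, drives a form of synaptic depression that depends on new protein synthesis, and FMRP is a known repressor of such synthesis, which is why these receptors are of interest in Fmr1-KO neurons.

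The Homer link can be read in the coding sequence. Homer proteins recognise 2 prolines, any 2 residues and a phenylalanine, so in-frame codons that spell this ligand (CCN, CCN, any 2 codons, then TTT or TTC) were located on the coding strand, in the longest coding transcript of each of 21504 genes with a complete coding sequence in GENCODE M21. They were present in 6.95% of those genes. The following 27-base stretches, 5′ to 3′, are shown because they set Grm5 against the other receptors and beside its partners, with the 5 ligand codons in capitals (coordinates on GRCm38 follow):
Grm5: ctcactCCACCATCGCCCTTCagggac
Grm2: accgtgCCCCCAGACTTCTTCcaagcc
Grm7: gtggtcCCACCTGATTCCTTCcaagcc
Shank3: gtgccaCCCCCTGAAGAGTTTgccaat
Itpr1: aacaatCCACCCAAGAAATTCagagac

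The Grm5 stretch lies in exon 9 at chr7:88130717-88130743 on the plus strand, and its ligand begins at codon 1156 of 1203, in the intracellular tail. In Grm2 (exon 3, chr9:106651108-106651134, minus strand) and Grm7 (exon 2, chr6:110914399-110914425, plus strand) the same codons begin at codon 186 of 872 and codon 200 of 922. Those positions are in the extracellular, glutamate-binding part of the receptor and not in its tail. Grm3, Grm4, Grm8 and the 3 Homer genes had no such codons. Among 26 genes listed as Homer or receptor partners or as calcium channels of the endoplasmic reticulum (Itpr1, Itpr2 and Itpr3), 11 had them, among them the scaffold gene Shank3 (exon 21, chr15:89549197-89549223, plus strand) and Itpr1, where the stretch is split by an intron between exons 4 and 5 (chr6:108241310-108339508, plus strand). A match describes the letters only and was not tested as a binding site.

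Total counts ran from 30348556 to 35126207 per library, so depth was similar across genotypes. Fmr1, the targeted gene, gave 4113, 3710 and 3656 reads in WT and 1761, 1879 and 1972 reads in Fmr1-KO, lower but well above 0 in every Fmr1-KO library, with a log2 fold-change of -0.98 ± 0.043 (SE, n = 3 against 3; adjusted P = 2.25e-13). Of 16976 genes tested with edgeR, 21.9% were called lower and 20.7% higher in Fmr1-KO, that is 42.6% in either direction, at an adjusted P under 0.05. Which direction held more genes depended on the scaling: with library totals alone 3212 genes were lower and 4207 higher, and with upper-quartile scaling 3517 and 3743, against 3725 and 3506 here. The 2 genotypes did not overlap, with Fmr1-KO on the low side, for 26.3% of tested genes, and with Fmr1-KO on the high side for 25.4%. The median size of a called log2 fold-change was 0.29.

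Of the 9 genes, 6 were lower in Fmr1-KO, 1 was higher and 2 were not called. The gene of group I, both genes of group II, 1 of the 3 genes of group III and 2 of the 3 Homer genes were among the 6. The median log2 fold-change of all 9 genes was -0.45, beside 0.006 for all tested genes. The share called lower was above the 21.9% background, but the genes had been chosen with earlier results of these data known, so that gap was not tested.

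**Figure D1:**
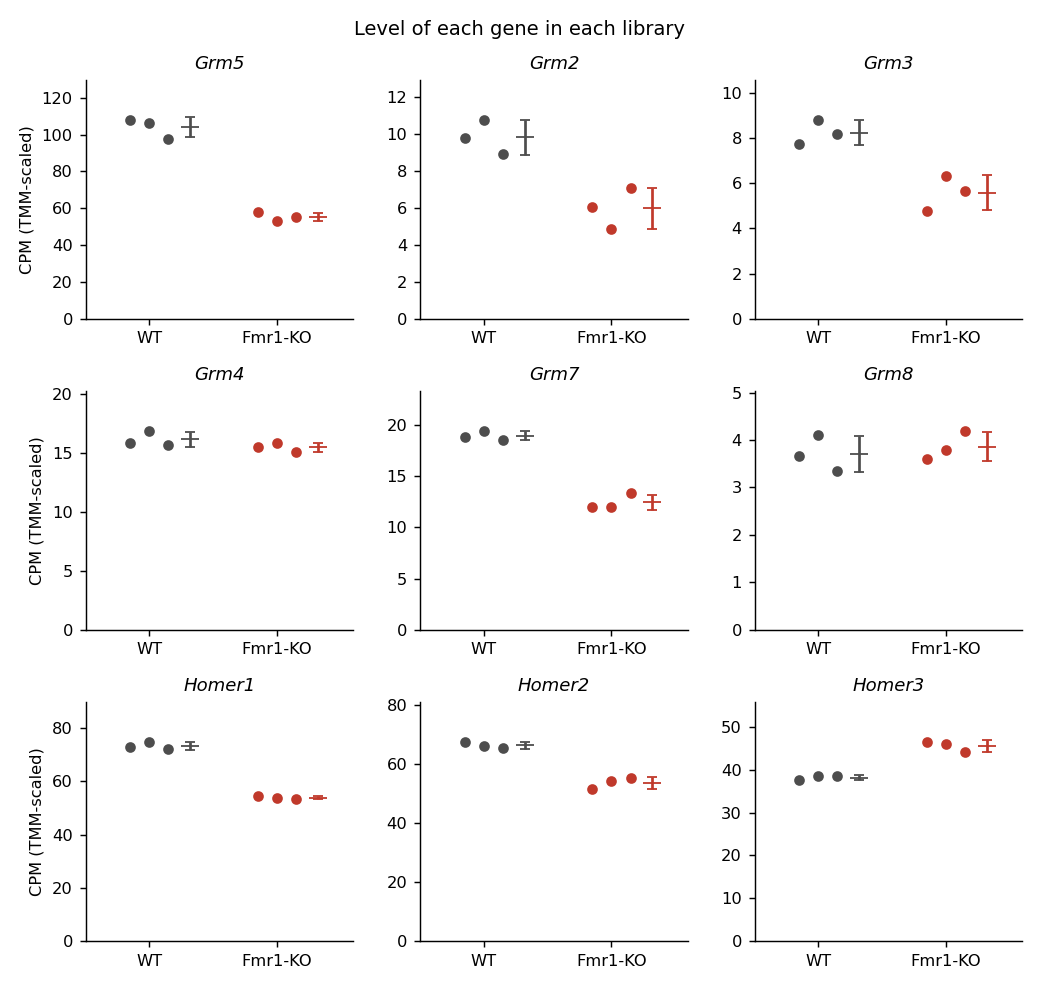
Level of each of the 9 genes in CPM (library-scaled counts; linear axes that start at 0) in the 3 WT and 3 Fmr1-KO libraries. Points are libraries, and the bar beside them is the mean with its SD. The genotypes are apart for 7 genes and overlap for Grm4 and Grm8, and Homer3 alone is higher in Fmr1-KO.

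Grm5, the group I receptor, showed the largest difference of the 9. Its level, in CPM (counts scaled to a common library size, with TMM factors), was 108, 107 and 97.9 CPM in the WT libraries and 57.7, 53.2 and 55.1 CPM in the Fmr1-KO libraries. Every Fmr1-KO library was far below every WT library, and the spread within each genotype was small. The mean was 104.2 ± 5.53 CPM in WT and 55.3 ± 2.27 CPM in Fmr1-KO (SD, n = 3 each), a log2 fold-change of -0.91 ± 0.043 (SE; adjusted P = 4.86e-13). Fmr1-KO cultures thus held 53.1% of the WT level of Grm5 RNA, with a 95% interval for the ratio from 49.9% to 56.5%. Because each library pools the RNA of a whole culture, fewer cells of a type and less RNA per cell cannot be told apart, for this gene or any other. The Grm5 gene occupies chr7:87584168-88134907 on the plus strand, and no other annotated exon overlaps its exons on either strand.

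Both group II receptors were lower in Fmr1-KO. Grm2, a presynaptic autoreceptor, measured 9.75, 10.8 and 8.90 CPM in WT and 6.06, 4.83 and 7.04 CPM in Fmr1-KO. The genotypes did not overlap, although the Fmr1-KO libraries varied among themselves with a coefficient of variation of 18.5%, against 7.13% from counting alone. The log2 fold-change was -0.71 ± 0.11 (adjusted P = 2.17e-05), and the gene kept its call whichever library was left out. Grm3, the group II receptor shared by neurons and astrocytes, measured 7.74, 8.83 and 8.18 CPM in WT and 4.77, 6.34 and 5.66 CPM in Fmr1-KO. These libraries were apart too, with a log2 fold-change of -0.56 ± 0.10 (adjusted P = 0.000128). Each rested on few reads, between 148 and 356 per library for Grm2 and between 155 and 292 for Grm3, and their SEs were larger than that of Grm5. The Grm2 ratio to WT was 60.96% (95% interval 52.3% to 71.9%) and that of Grm3 67.7% (58.4% to 78.5%), and these intervals overlapped.

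Group III did not move as a group. Grm7, which encodes a presynaptic receptor of low glutamate affinity that sits in the release zone itself, measured 18.8, 19.4 and 18.5 CPM in WT and 11.99, 11.99 and 13.3 CPM in Fmr1-KO. All Fmr1-KO libraries were below all WT libraries, and the log2 fold-change was -0.60 ± 0.066 (adjusted P = 1.73e-07). Grm4 measured 15.9, 16.9 and 15.7 CPM in WT and 15.6, 15.8 and 15.1 CPM in Fmr1-KO, and the genotypes overlapped. Its log2 fold-change was -0.06 ± 0.063 (95% interval -0.19 to 0.07; adjusted P = 0.471), an interval apart from that of Grm7 (-0.74 to -0.47). Grm8 was the scarcest of the 9, with 112 to 146 reads per library. WT libraries measured 3.65, 4.11 and 3.36 CPM and Fmr1-KO libraries 3.60, 3.79 and 4.20 CPM, which overlapped. The log2 fold-change of Grm8 was 0.06 ± 0.12 (95% interval -0.19 to 0.31; adjusted P = 0.721). At this depth any level from 87.7% to 124.2% of WT lay within the interval, and the sign of the estimate turned when WT replicate 3 or Fmr1-KO replicate 3 was left out. Grm6, the remaining group III gene, whose product is the receptor of retinal ON bipolar cells, had 0 counts in every library.

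**Figure D2:**
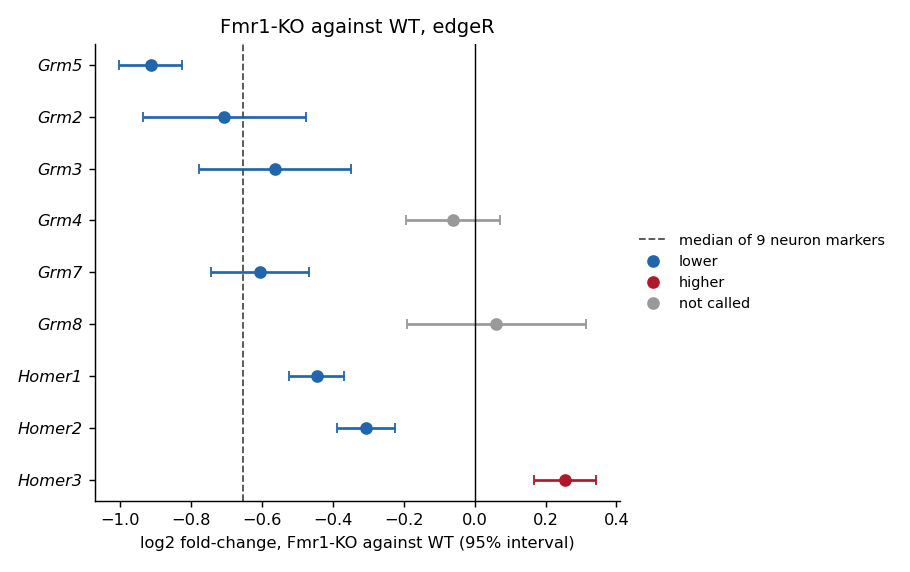
Log2 fold-change of the 9 genes in Fmr1-KO against WT with its 95% interval (edgeR, n = 3 libraries each; linear axis). Colour gives the call at an adjusted P under 0.05, and the dashed line is the median of 9 neuron markers at -0.65. Grm5 lies to the left of that line with its whole interval, Grm2, Grm3 and Grm7 straddle it, and Grm4, Grm8 and the 3 Homer genes lie to its right.

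The Homer genes split. Homer1, the best known of the scaffolds, measured 72.9, 74.9 and 72.2 CPM in WT and 54.5, 53.6 and 53.4 CPM in Fmr1-KO. Coefficients of variation were 1.91% in WT and 1.08% in Fmr1-KO, both below the 2.01% and 2.39% from counting alone. The genotypes lay far apart. The log2 fold-change was -0.45 ± 0.037 (adjusted P = 2.86e-09), or 73.4% of WT (95% interval 69.6% to 77.4%). Homer2 measured 67.5, 66.1 and 65.4 CPM in WT and 51.4, 54.2 and 55.3 CPM in Fmr1-KO. Its log2 fold-change was -0.31 ± 0.039 (adjusted P = 1.74e-06), or 80.9% of WT. Homer3, the third scaffold, measured 37.5, 38.6 and 38.6 CPM in WT and 46.6, 46.1 and 44.1 CPM in Fmr1-KO, and here all Fmr1-KO libraries were above all WT libraries. Its log2 fold-change was 0.25 ± 0.043 (adjusted P = 4.86e-05), a rise to 119.3% of WT. Tested against a minimum fold change of 1.2 instead of none, Homer2 (adjusted P = 0.255) and Homer3 (adjusted P = 0.979) were not called.

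On GRCm38, Grm2 lies at chr9:106643095-106656082 (minus strand), Grm3 at chr5:9485541-9725170 (minus), Grm4 at chr17:27422387-27521403 (minus), Grm7 at chr6:110645581-111567230 (plus) and Grm8 at chr6:27275119-28135178 (minus). Homer1 lies at chr13:93299635-93405129 (plus), Homer2 at chr7:81600481-81707527 (minus) and Homer3 at chr8:70282827-70294361 (plus). Counts were taken over exons of each gene by strand. The only annotated exon that overlaps theirs on the same strand is the microRNA gene Mir592 within Grm8, over 96 bases. On the opposite strand, Homer3 shares 874 bases with Ddx49, Homer2 525 with Gm44570, Grm2 470 with Gm28111 and Grm7 130 with Gm20387.

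The annotation holds 11 coding transcripts of Homer1, from 180 to 370 codons long. The short, activity-induced form and the long scaffolding forms share the same gene name, and the counts were summed by gene name, so the share of each could not be read. Among 8 immediate early genes, whose RNA follows recent activity, 3 were lower (Egr2, Junb and Nr4a1), 2 were higher (Egr1 and Arc) and 3 were not called. Their summed level was 86.3 to 105 CPM in WT and 89.8 to 96.0 CPM in Fmr1-KO, and the genotypes overlapped.

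Divided by the joined length of all annotated exons of a gene, Homer3 had the highest RNA level of the 9 in WT, at 11.1 CPM per kilobase. It was followed by Grm5 (10.2), Homer1 (6.13), Homer2 (5.26), Grm7 (3.22), Grm3 (2.71), Grm4 (2.704), Grm2 (2.00) and Grm8 (0.375 CPM per kilobase). Neighbours in this order did not overlap between libraries, except Grm3 and Grm4, whose levels did. In Fmr1-KO the levels per kilobase ran from Homer3 at 13.3 CPM through Grm5 (5.40), Homer1 (4.50), Homer2 (4.25), Grm4 (2.59), Grm7 (2.11), Grm3 (1.83) and Grm2 (1.22) to Grm8 (0.390). Only Grm7 and Grm3 overlapped there. In WT, Homer3 and Grm5 were close at the top, and Grm4 stood below Grm7. In Fmr1-KO, Grm5 had moved down towards Homer1 and Grm4 stood above Grm7. The place of Homer3 depends on these lengths, 3440 bases against 11976 for Homer1 and 12621 for Homer2, whichever isoforms were expressed. In CPM without that division, WT Homer3 (38.2) was below Grm5 (104.2), Homer1 (73.4) and Homer2 (66.3).

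The make-up of the receptor RNA was followed as the share of each gene in the summed level per kilobase of the 6 receptor genes, a quantity that does not depend on scaling between libraries. Grm5 made up 49.6%, 47.2% and 47.4% in WT and 41.9%, 39.0% and 38.7% in Fmr1-KO, a difference of -8.17 percentage points with no overlap. The Grm4 share was 12.4%, 12.8% and 13.0% in WT and 19.4%, 19.9% and 18.2% in Fmr1-KO, 6.37 points more and again without overlap. Grm8 made up 1.77% ± 0.107 in WT and 2.88% ± 0.175 in Fmr1-KO (SD, n = 3 each), also apart. For these 3 genes the 2-sided exact permutation test gave P = 0.1, the smallest value that 3 libraries against 3 allow, so no share could pass 0.05. The shares of Grm2 (P = 0.8), Grm3 (P = 0.7) and Grm7 (P = 0.5, exact permutation tests) overlapped between genotypes. Those 3 genes were lower in level in Fmr1-KO, while their shares stood at 9.45%, 12.8% and 15.2% in WT and 8.996%, 13.5% and 15.6% in Fmr1-KO. Grm4 and Grm8, whose shares were larger in Fmr1-KO, were not called in level, at 95.9% and 104.1% of WT. A share is larger also where only the other genes of the sum are lower, so it does not show a higher level.

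Within the Homer genes the balance was also different. Homer3 took 48.8%, 49.4% and 50.0% of the summed level per kilobase in WT and 61.1%, 60.5% and 59.2% in Fmr1-KO. Homer1 took 27.2% ± 0.334 in WT and 20.4% ± 0.211 in Fmr1-KO, and Homer2 23.4% ± 0.490 and 19.3% ± 0.923 (SD, n = 3 each). All 3 shares were apart between genotypes, each with the smallest exact permutation P of 0.1. As shares of raw counts, without division by exon length, Homer3 was the smallest of the 3, at 21.5% in WT and 29.8% in Fmr1-KO, and Homer1 the largest, at 41.2% and 35.2%. The shares differed in the same directions and stayed apart on that scale, but the Homer2 difference was -2.26 points in place of -4.05. The summed level of the 3 genes was 176 to 179.5 CPM in WT and 152.5 to 153.9 CPM in Fmr1-KO.

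**Figure D3:**
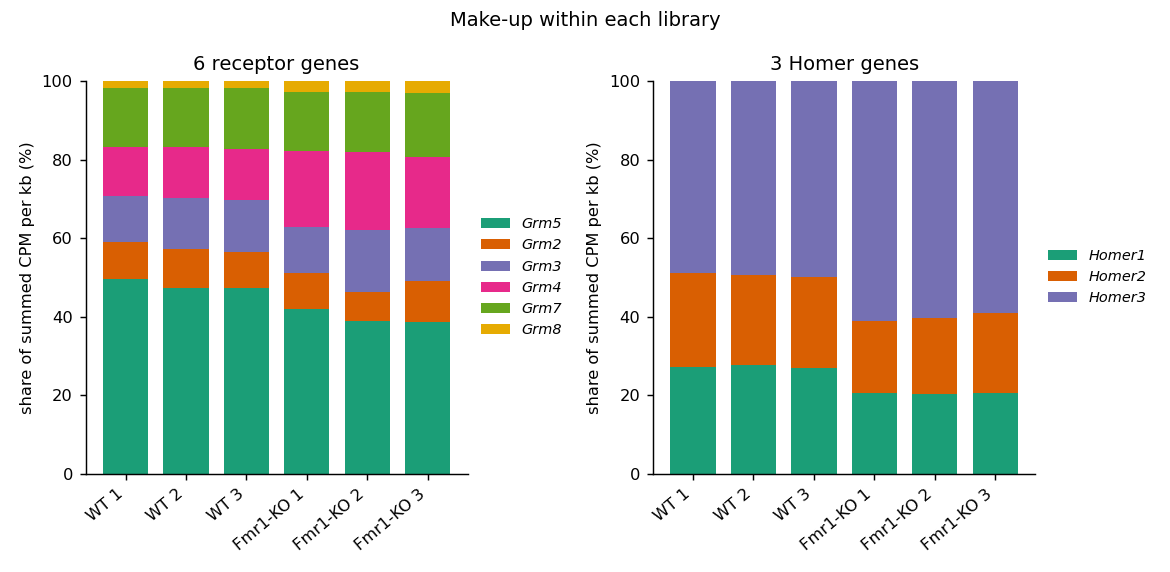
Share of each gene in the summed CPM per kilobase of exon of the 6 receptor genes (left) and the 3 Homer genes (right), in percent, for each of the 6 libraries. In Fmr1-KO the Grm5 segment is shorter (39.9% against 48.0% on average) and the Grm4 segment longer (19.1% against 12.8%), and Homer3 takes 60.2% against 49.4%.

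The cultures had been depleted of ACSA2-positive astrocytes and of myelin before plating, according to the methods of the study. Astrocyte genes were nevertheless abundant: the 11 markers summed to 5945 to 6067 CPM in WT and 5296 to 5701 CPM in Fmr1-KO, of which Gfap, the astrocyte filament gene, gave 2649 ± 67.0 and 2297 ± 158 CPM. The 9 neuron markers were all present and all lower in Fmr1-KO, with a median log2 fold-change of -0.65 and summed levels of 3657 to 3755 CPM in WT and 2897 to 3050 CPM in Fmr1-KO. They ranged from -0.11 for Map2, a dendritic microtubule protein gene, to -1.90 for Nefl, the light neurofilament gene. All 6 markers of oligodendrocyte precursors, all 4 of myelinating oligodendrocytes and 6 of 7 of microglia were lower as well. Of 9 genes of progenitors and dividing cells, 6 were higher and 0 lower, with summed levels of 1970 to 2023 CPM in WT and 2499 to 2652 CPM in Fmr1-KO. Excitatory neuron markers (2 lower, 4 higher), GABAergic interneuron markers (5 lower, 4 higher) and astrocyte markers (6 lower, 3 higher, 2 not called) were mixed. Of 7 endothelial and mural markers, 2 were lower and 3 higher, and their sums stayed under 102 CPM; Cldn5, an endothelial junction gene, had too few counts to be tested. The part that these differences had in the values of the receptor and Homer genes was not tested.

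Set against the neuron markers within each library, the genes separated differently. The mean log2 level of the 9 markers was 0.738 lower in Fmr1-KO. The log2 ratio of Grm5 to that mean was 0.175 lower in Fmr1-KO than in WT, with all Fmr1-KO libraries below all WT libraries. Grm2 and Grm3 ratios overlapped between genotypes, with differences of 0.01 and 0.17. The ratios of Grm7 (0.13 higher), Homer1 (0.29), Homer2 (0.43), Grm4 (0.68), Grm8 (0.80) and Homer3 (0.99) were above WT in every Fmr1-KO library. Grm5 was thus the 1 gene of the 9 that was lower relative to this mean in all Fmr1-KO libraries, 2 overlapped and 6 were higher. The markers themselves differed widely, from -0.11 for Map2 to -1.35 for Nefm and -1.90 for Nefl. The 2 neurofilament genes pull the mean below the marker median of -0.65, so the split depends on the markers chosen. This ratio describes the libraries and was given no test.

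Downstream of group I, the 17 genes of the Gq arm counted 10 lower, 1 higher and 6 not called, with a median log2 fold-change of -0.35. Gnaq, which encodes the Gq subunit, was not called (log2 fold-change -0.07, adjusted P = 0.0801), and its close relative Gna11 was lower by a small amount (-0.13, adjusted P = 0.00256). Plcb1, which encodes a phospholipase C that Gq activates, fell by 0.59 ± 0.042 on the log2 scale (adjusted P = 3.33e-10), from 77.6 ± 3.35 to 51.6 ± 2.19 CPM. Its relatives Plcb3 (0.10, adjusted P = 0.0766) and Plcb4 (-0.03, adjusted P = 0.654) were not called, at 43.7 and 45.7 CPM in WT. Plcb2 was lower (-0.98, adjusted P = 0.0117), at only 0.83 CPM in WT. Itpr1, the neuronal IP3-gated calcium channel that carries the Homer ligand shown above, measured 135.2 ± 4.49 CPM in WT and 135.7 ± 2.67 CPM in Fmr1-KO (log2 fold-change 0.01 ± 0.034, adjusted P = 0.916). Among genes of at least 10 CPM on average, large changes were in Rgs4, which speeds the shut-off of Gq and Gi signals (log2 fold-change -1.26), and in the protein kinase C gene Prkcb (-0.87). Itpr2, another IP3-gated channel whose coding sequence also holds ligand codons, fell from 163.8 ± 5.94 to 90.4 ± 6.10 CPM (-0.86). Rgs2, another regulator of Gq, was the 1 gene of this arm that was higher (0.17).

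The 19 genes of the Gi/o arm, which serves groups II and III, counted 15 lower, 1 higher and 3 not called, with a median log2 fold-change of -0.27. Gnao1, which encodes the most abundant G protein alpha subunit of neurons, was lower by a small amount (-0.20, adjusted P = 4.07e-06), and Gnai2 was not called (0.07, adjusted P = 0.0516). Adcy1, a calcium-stimulated adenylyl cyclase, fell from 256 ± 5.51 to 105.4 ± 5.39 CPM (log2 fold-change -1.28 ± 0.036, adjusted P = 3.19e-16). Adcy8 (-0.79) and Adcy5 (-0.70), 2 other cyclases, and Kcnj3, a subunit of the potassium channel that Gi/o opens (-0.95), were lower too. Adcy6 was higher, by 0.11.

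Scaffolds and binding partners of Homer and the receptors counted 16 lower, 1 higher and 6 not called of 23, with a median of -0.35. Frmpd4, the scaffold also called Preso, which binds both mGluR5 and Homer, fell from 18.3 ± 0.564 to 6.37 ± 0.617 CPM (log2 fold-change -1.52 ± 0.078, adjusted P = 2.25e-12). Ryr2, a ryanodine receptor, was lower by 1.25, and Elfn2 and Ncdn by 0.56 each; Elfn2 encodes an adhesion protein that binds group III receptors across the synapse, and Ncdn a cytoplasmic protein that binds group I receptors. The Shank genes, whose coding sequences hold the Homer-ligand codons, were all lower, with log2 fold-changes of -0.56 for Shank1, -0.35 for Shank2 and -0.45 for Shank3. Ryr1 was the 1 partner gene that was higher (0.77).

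Genes of mGluR-dependent plasticity were less uniform, with 8 lower, 2 higher and 7 not called of 17 and a median of -0.10. Map1b, a microtubule protein gene and a classical FMRP target, was lower by 0.57. Ptpn5, the gene of the tyrosine phosphatase STEP (-0.50), Cyfip2, of an FMRP-binding protein (-0.49), and Mapk3, of the kinase ERK1 (-0.45), were the others with the largest changes. The 2 that were higher were Eif4ebp2, of a translation repressor (0.10), and Arc, whose protein promotes removal of AMPA receptors (0.34, adjusted P = 0.0209), at a low level of 4.86 ± 0.378 CPM in WT. The genes not called included those of the translation machinery Eef2, Eef2k, Eif4e, Rps6kb1, Mknk1 and Mknk2, and Cyfip1.

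**Figure D4:**
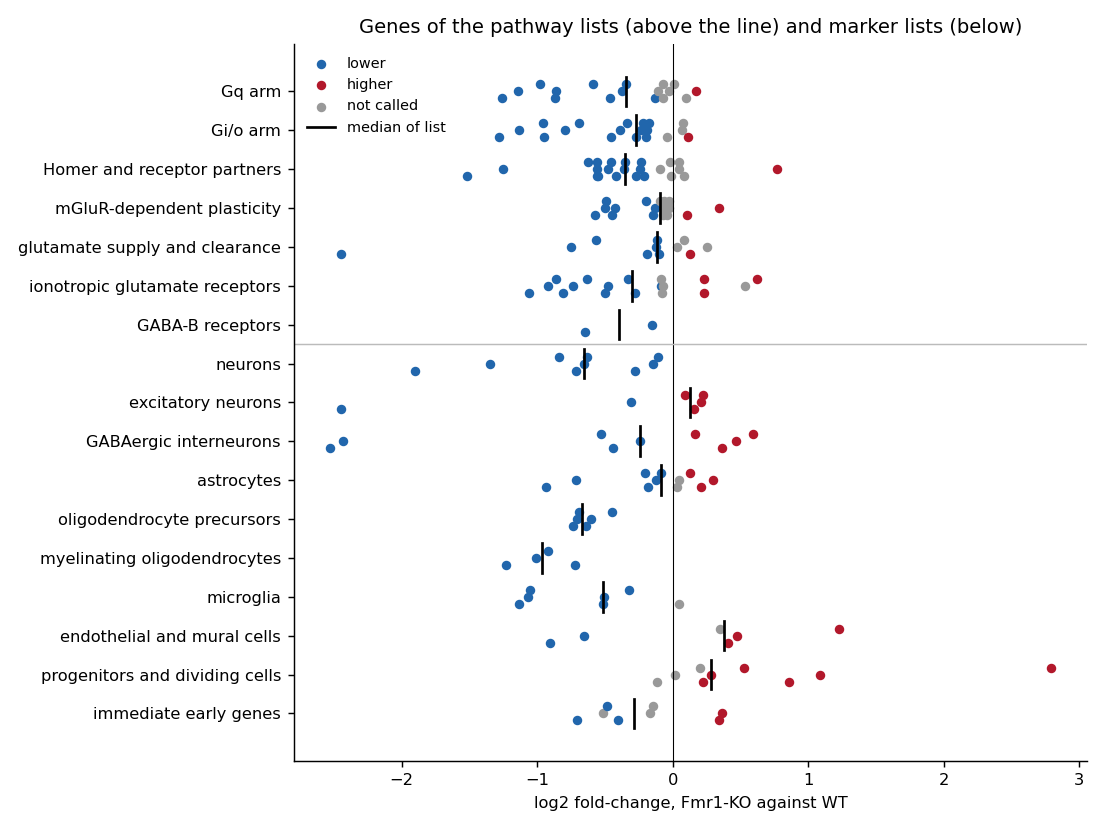
Log2 fold-change in Fmr1-KO against WT (linear axis) of each tested gene in the 7 pathway lists, above the grey line, and in the 10 marker lists, below it. Points are genes coloured by the call, and black ticks are list medians. The pathway medians run from -0.40 (GABA-B receptors) to -0.10 (mGluR-dependent plasticity), and the neuron markers lie at -0.65.

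The supply of glutamate and the other receptor families give the setting. Of 11 genes of glutamate supply and clearance 7 were lower and 1 was higher. Slc17a7, which encodes the vesicular glutamate transporter VGLUT1, fell from 20.2 ± 0.498 to 3.69 ± 0.0893 CPM, a log2 fold-change of -2.45 ± 0.079 (adjusted P = 1.69e-15). The neuronal glutamate transporter gene Slc1a1 (-0.75) and the VGLUT2 gene Slc17a6 (-0.56) were lower, whereas the astrocyte transporter gene Slc1a3 was not called (0.03). The 18 ionotropic glutamate receptor genes counted 11 lower, 3 higher and 4 not called, with a median of -0.30, beside -0.45 for the 9 genes above. The NMDA receptor genes Grin1 (-0.92), Grin2a (-0.81) and Grin3a (-0.74) were among those with the largest changes, and the size of the Grin1 change was close to that of Grm5. Both GABA-B receptor genes, the GABA-activated members of the same receptor class, were lower: Gabbr2 by 0.65 and Gabbr1 by 0.15.

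Across all 10762 other genes of at least 10 CPM, those whose log2 CPM followed Grm5 most closely over the 6 libraries were Abcg4 (Pearson r = 0.9991), Bzw1 (0.9984) and Hprt (0.9981). For Homer1 they were Gucy1b1 (0.9997), Inhba (0.9993) and Map1a (0.9993). The 6 libraries form 2 genotype groups, so these values describe likeness across the genotypes and within them together. The genes nearest to Grm5 in pattern had much smaller changes than Grm5 itself, with log2 fold-changes of -0.35, -0.11 and -0.26.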

How the data were processed

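RNA was measured in 6 libraries, 3 per genotype. Values as deposited are raw read counts per gene, which the authors had not normalized. Their methods name FastP, STAR and featureCounts, with reads assigned to exons on the reverse strand and summed by gene name, on GRCm38.p6; counts by name do not separate isoforms. Every sample column mapped to a label. The study describes its triplicates as independently derived, and the labels tie no library to a culture or litter; P values measure the spread between these libraries. Between any 2 replicates of a genotype, chi-square divided by its degrees of freedom was 2.24 to 3.87, above the sampling noise of repeated counts.

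Genes were tested with edgeR 4.0.16 in R 4.3.3 (filterByExpr, TMM, glmQLFit and glmQLFTest, 2-sided, genotype as the only term) with Benjamini-Hochberg adjustment over 16976 genes, and called at an adjusted P under 0.05. An SE was taken as |log2 fold-change|/√F. CPM are TMM-scaled. The script was tested on simulated data. Exon lengths, coordinates and coding sequences came from GENCODE M21, an earlier release than the authors'. DESeq2 1.42.0, other normalizations, filters, a replicate block, a minimum fold change of 1.2 and leaving out each library were alternatives. Shares were compared by exact permutation tests (scipy 1.17.1).

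The genes and lists were chosen with earlier results of these data known, and several list genes are ones the study discusses. Named list genes are the called genes of at least 10 CPM with the largest log2 fold-changes, at most 4 per pathway list, with Gnaq, Gna11, Plcb1, Itpr1, Gnao1, Gnai2 and Fmr1; for Grm5 and Homer1, the 3 genes with the highest Pearson r were named. Some genes that this rule names are not reported here. Marker genes, Grm6, Plcb2, Plcb3, Plcb4, Rgs2, Adcy6, the Shank genes, Ryr1, Arc, Slc1a3 and the translation genes were named after their values were seen.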

Additional observations from a re-analysis of the deposited data

How the results depend on the processing

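Of the 125 values of the 9 genes under the alternatives, 121 kept their direction and their side of the threshold. The 6 genes called lower were 6 under every alternative that was run except the minimum fold change of 1.2, where Homer2 lost its call; under that alternative 0 genes were called higher, against 1, since Homer3 lost its call, and over all genes 1340 were lower and 883 higher, against 3725 and 3506. Grm8, never called, changed sign without WT replicate 3 (-0.0052) and without Fmr1-KO replicate 3 (-0.0065), within a range over the left-out libraries of -0.0065 to 0.14; it did not pass the stricter filter, which gave it no value. Itpr1, never called, changed sign when WT replicate 2 (-0.0058), the third WT library (-0.0121) or Fmr1-KO replicate 2 (-0.0084) was left out, within a range of -0.0121 to 0.0325. Causes were not tested. Over the alternatives Grm5 ran from -0.96 to -0.89, Homer1 from -0.46 to -0.42 and Homer3 from 0.24 to 0.28. Gnai2 passed the threshold under 5 alternatives and Gnaq without Fmr1-KO replicate 3 (-0.10, adjusted P = 0.0325); Gna11 and Gnao1 lost their calls with the minimum fold change of 1.2. Of 63 alternative values of the shares 58 moved by less than the spread between replicates; the other 5 all came from raw counts in place of counts per exon length, where the difference was 5.68 points for Grm4, 1.61 for Grm8, -6.05 for Homer1, -2.26 for Homer2 and 8.31 for Homer3, each in the same direction as per length. Of 294 list medians 257 moved by less than that spread, and no list median changed sign.

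Deviations of same-numbered libraries from their genotype means correlated at -0.153, 0.143 and 0.0713 over 10763 genes, without a common sign. Libraries of different numbers were not compared, so these values cannot settle whether a litter or culture day was shared. With the replicate number as a block, 6 genes were lower and 1 higher, with Grm5 at -0.91, and 3694 genes in all were lower and 3488 higher. Depth limits Grm8, Grm2 and Grm3 most, since these had the fewest reads of the 9.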
